A study of Mus musculus with 12 samples.

Results

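The genes described here encode the translation initiation and elongation factors of the mouse striatum, the eIF and eEF proteins that start protein synthesis on the ribosome and carry it forward. They were chosen by symbol, as every gene whose symbol on the array begins with Eif and a digit up to 6, or with Eef and the digit 1 or 2, leaving out the eIF2 kinases (Eif2ak) and the eIF4E-binding proteins (Eif4ebp). The rule found 46 of the 12394 genes with 1 symbol, and these 46 were covered by 101 probe sets. Where several probe sets covered a gene, the brightest on average stands for it. Of the 46 genes, 43 passed the filter on low values and were tested among 8257 genes in all, while Eef1aknmt, Eef2k and Eef2kmt lay below it.

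Gene expression was measured on Affymetrix arrays in the striatum of C57Bl/6 mice, with 3 mice in each of 4 groups: TIF-IA mutants aged 13 weeks, controls aged 13 weeks, TIF-IA mutants aged 9 weeks and controls aged 9 weeks. In the mutants, TIF-IA, encoded by Rrn3, was deleted with D1R-Cre. TIF-IA lets RNA polymerase I start transcription of the ribosomal RNA genes. The D1R-Cre transgene is active in neurons with the D1 dopamine receptor, so other cells of the striatum keep the gene. The genotype of the controls is not specified further in the labels, which give the tissue as striatum and the cell type as medium spiny neurons. The series text sets out to profile survival and death of the neurons, and it gives both 5 arrays and 3 mice for a condition. The 12 arrays with values, 3 per group, were used.

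Translation starts when eIF2 brings the initiator tRNA to the small ribosomal subunit, where eIF3, eIF1 and eIF1A hold the complex open for scanning. The mRNA is recruited through eIF4F, which consists of the cap-binding protein eIF4E, the scaffold eIF4G and the helicase eIF4A. At the start codon eIF5 makes eIF2 hydrolyse its GTP, eIF5B joins the large subunit, and eIF2B recharges eIF2 for another round. During elongation eEF1A delivers aminoacyl-tRNA and eEF2 moves the ribosome by a codon. eIF6 belongs to the making of ribosomes as well, since it sits on newly made large subunits and keeps them from joining small ones too early. In the nervous system the elongation factor eEF1A has a neuronal form, eEF1A2, that takes over from eEF1A1 in mature neurons and muscle.

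Values are deposited log2 GCRMA values, a difference is mutant minus control (or 13 minus 9 weeks) on that scale with its standard error (SE, n = 3 per group), and an adjusted p is from limma with Benjamini-Hochberg adjustment over all 8257 genes. A gene is said to rise or fall where its adjusted p was under 0.05. The array medians lay between 5.29 and 5.52, and the number of arrays limits the precision. As read from Xist, all 3 mutants at 13 weeks were female, as was 1 of 3 mice in each other group. The Y-linked Eif2s3y and Kdm5d split the arrays the same way, while the Y-linked Uty overlapped between the sexes. Array 3 of the controls at 13 weeks stood apart: its mean correlation with its group was 0.941, against 0.964 to 0.990 for the other 11 arrays, and it was the lowest of its group for 24 of the 43 factor genes. It was also the only female among these controls. Differences at 13 weeks without it therefore set female mutants against male controls, and sex and genotype cannot be told apart in them. Many results of factor genes that rest on array 3 at 13 weeks are given with and without it.

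Rrn3, the deleted gene, was measured by 1 probe set whose place relative to the deletion is not known. It stood at 7.72, 7.58 and 7.18 in mutants and 7.96, 7.54 and 8.04 in controls at 13 weeks. At 9 weeks it stood at 6.90, 6.96 and 6.91 in mutants and 8.0, 7.97 and 8.2 in controls. It fell at 9 weeks, by 1.13 ± 0.18 (adjusted p = 0.00748), with all mutants below all controls. At 13 weeks the groups overlapped and the difference of -0.35 ± 0.18 did not pass (adjusted p = 0.128).

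At 13 weeks, 12 factor genes rose in mutants, 3 fell and 28 did not pass, so that 34.9% of the factor genes passed against 45.4% of all genes tested. The rises were 27.9% of the factor genes, close to the 23.4% among all genes, and the falls were 6.98%, against 22% among all genes. The factor genes that rose were Eef1e1, Eif4e2, Eif6, Eif2s3x, Eif5, Eif4g2, Eif2s2, Eif3a, Eif1b, Eif3d, Eif2b2 and Eif1ax, and those that fell were Eef1a2, Eif2b5 and Eef2. The median difference of the factor genes was 0.20, against 0.00 over all genes, and the median size of a difference was 0.44, against 0.53. All 3 mutants lay above all 3 controls for 16 factor genes (37.2%, with 27.8% of all genes), and below them for 3 (6.98%, with 26.8%). Centring each array on its median moved the median over all genes by -0.16 and gave 9 rises and 6 falls in place of 12 and 3 (20.9% and 14% of the factor genes, with 18.9% and 28.9% of all genes). Eif2s2, Eif2b2 and Eif1ax lost their calls under that scaling. Without control 3 there were 11 rises and 3 falls among the factor genes, with 1991 rises and 1959 falls among all 8257 genes. In that fit Eif2b2, Eif2b5 and Eef2 no longer passed, and Eif4a2 and Eef1akmt1 fell.

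**Figure D1:**
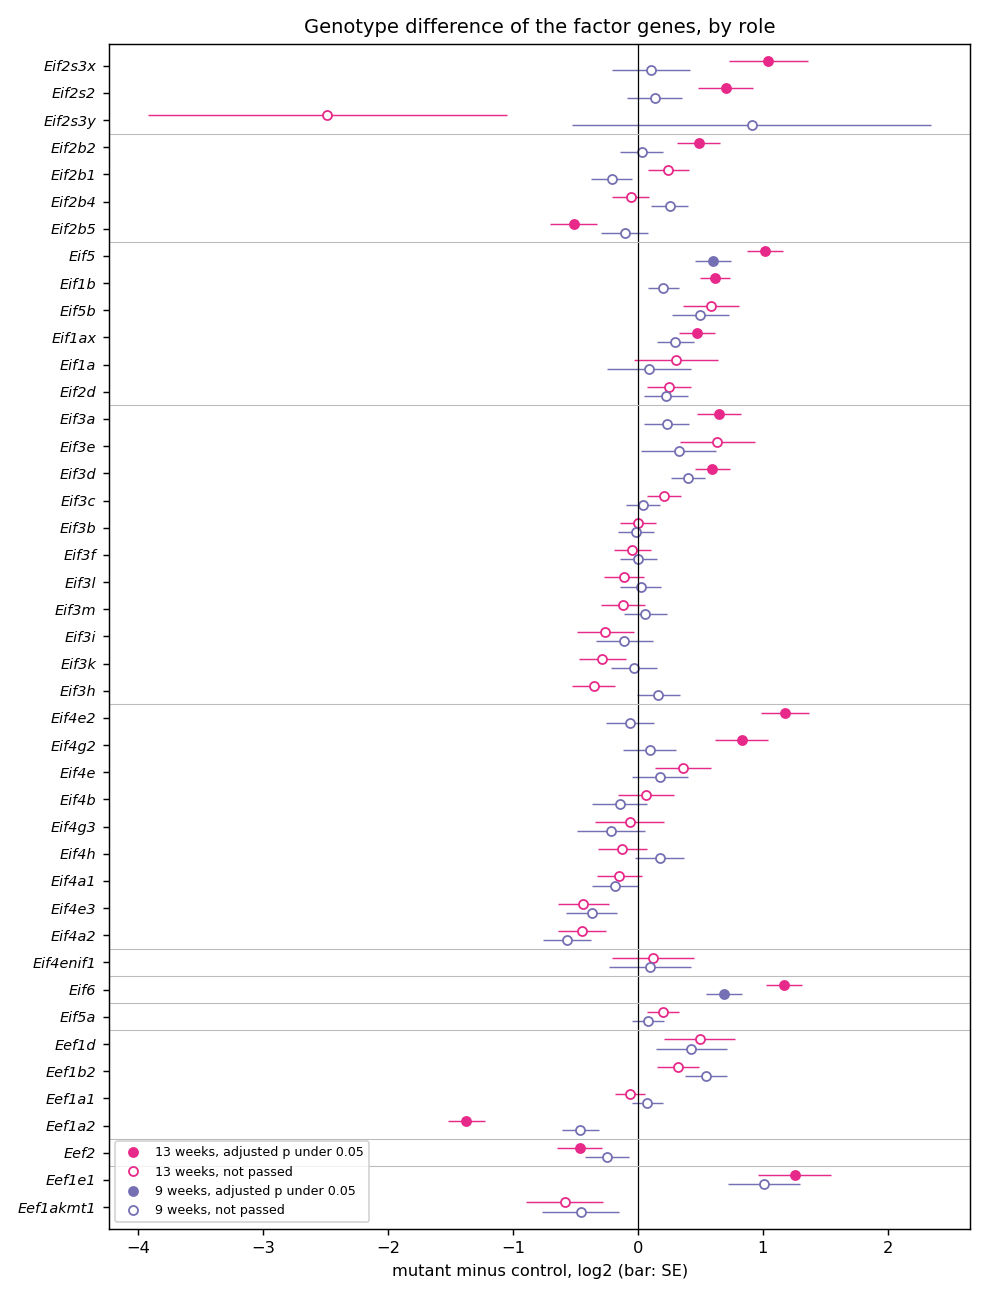
Difference between mutants and controls (log2, horizontal axis) for the 43 factor genes tested, grouped by role with grey lines between roles. Upper points of each row are 13 weeks and lower points 9 weeks, bars are the SE, and filled points had an adjusted p under 0.05: 15 genes are filled at 13 weeks and 2, Eif5 and Eif6, at 9 weeks. The wide bars of Eif2s3y come with a gene that lay below the filter in females.

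Of the 3 tested genes of eIF2, 2 rose at 13 weeks and the Y-linked one did not pass. Eif2s2, the beta subunit, stood at 11.60, 11.49 and 11.65 in mutants and at 11.13, 11.25 and 10.25 in controls at 13 weeks. The mutants lay above all controls, and control 3 was by far the lowest array. The difference was 0.70 ± 0.22 (adjusted p = 0.0214), and without control 3 it was smaller, 0.39 ± 0.11, and past the test (adjusted p = 0.0147). After median centring it did not pass (0.54, adjusted p = 0.067). Eif2s3x, the X-linked gamma subunit, rose by 1.04 ± 0.31 (adjusted p = 0.0177), and its Y-linked copy Eif2s3y did not pass (adjusted p = 0.179). Both lie on sex chromosomes, and their values are set out by sex further on.

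In eIF2B, the exchange factor that restores eIF2 to its GTP-bound state, 1 subunit gene rose, 1 fell and 2 did not pass at 13 weeks. Eif2b2, the beta subunit, stood at 9.67, 9.57 and 9.68 in mutants and at 9.17, 9.43 and 8.86 in controls, a rise of 0.49 ± 0.17 (adjusted p = 0.0367). Eif2b5, which encodes the catalytic epsilon subunit, stood at 8.27, 8.43 and 8.29 in mutants and at 8.53, 8.70 and 9.30 in controls, and fell by 0.51 ± 0.19 (adjusted p = 0.0446). The groups did not overlap for either gene, and control 3 was the extreme array in both. Without it neither passed, with 0.34 ± 0.15 for Eif2b2 (adjusted p = 0.0854) and -0.29 ± 0.13 for Eif2b5 (adjusted p = 0.0975). Eif2b1 and Eif2b4, the alpha and delta subunits, had differences of 0.24 and -0.06 (0.09 and -0.04 without control 3).

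The factors of start-site choice, GTP hydrolysis and subunit joining all had positive differences at 13 weeks, from 0.25 to 1.02 over 6 genes, and 3 of the 6 rose. Without control 3, Eif1a turned to -0.14 and the other 5 stayed positive. Eif5, the activator of GTP hydrolysis by eIF2, stood at 11.87, 11.76 and 11.75 in mutants and at 10.83, 10.90 and 10.60 in controls. Every mutant lay far above every control. The rise was 1.02 ± 0.14 (2.02-fold, adjusted p = 0.00015), and the 3 other Eif5 probe sets over the filter rose by 1.24, 1.22 and 1.55.

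Eif1b, a close relative of the start-codon factor eIF1, stood at 11.46, 11.42 and 11.51 in mutants and at 10.76, 10.91 and 10.87 in controls at 13 weeks. Both groups were tight and clearly apart, with a rise of 0.62 ± 0.12 (adjusted p = 0.00163). Eif1ax, the X-linked gene of eIF1A, stood at 9.77, 9.92 and 9.88 in mutants and at 9.21, 9.39 and 9.55 in controls. It rose by 0.47 ± 0.15 (adjusted p = 0.021), but not past the test with a term for sex in the fit (0.43 ± 0.17, adjusted p = 0.0666). Eif5b, the GTPase that joins the subunits, was just over the threshold: its values were 8.89, 8.93 and 8.20 in mutants and 8.06, 8.0 and 8.20 in controls, a difference of 0.59 ± 0.23 (adjusted p = 0.0516). Eif1a and Eif2d, which can bring initiator tRNA to the ribosome on its own, differed by 0.30 and 0.25 and did not pass (-0.14 and 0.17 without control 3).

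Of the 11 genes of eIF3, the largest initiation factor and the scaffold on the small subunit, 2 rose at 13 weeks, 0 fell and 9 did not pass, with a median difference of -0.05 and a range from -0.35 to 0.65. Eif3d, a subunit that can itself bind the mRNA cap, stood at 10.80, 10.62 and 10.66 in mutants and at 10.15, 10.08 and 10.06 in controls, and rose by 0.60 ± 0.14 (adjusted p = 0.0040). Eif3a, the core subunit, stood at 10.77, 10.81 and 10.68 in mutants and at 10.39, 10.09 and 9.83 in controls, and rose by 0.65 ± 0.18 (adjusted p = 0.011). Without control 3 the rise of Eif3a was 0.51 ± 0.17 (adjusted p = 0.0251). The groups overlapped neither for Eif3d nor for Eif3a. Eif3e had a difference of like size, 0.64 ± 0.30, which did not pass (adjusted p = 0.103) and was 0.17 ± 0.12 without control 3, whose value of 10.17 lay far below those of 11.50 and 11.64 in the other controls. Differences within the complex ran both ways: Eif3h, Eif3k and Eif3i had differences of -0.35, -0.28 and -0.26, none past the test (-0.21, -0.19 and -0.04 without control 3), and Eif3b one of 0.00.

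The cap-binding, scaffold and helicase genes of eIF4F held 2 rises among 9 genes at 13 weeks, and both belong to relatives with other functions than the standard complex. Eif4e2 encodes 4EHP, a cap-binding protein that does not bind eIF4G and is known to repress translation. It stood at 7.67, 7.70 and 7.48 in mutants and at 6.23, 6.53 and 6.56 in controls. The mutants lay above all controls, and the rise was 1.18 ± 0.19 (2.26-fold, adjusted p = 0.000451). The other probe sets of Eif4e2 did not follow, with differences of 0.22 and -0.57, and the mean of the gene's probe sets gave 0.20 (adjusted p = 0.231), so this rise holds for 1 probe set. Eif4g2 encodes DAP5, an eIF4G relative that lacks the eIF4E-binding part. Its values were 12.38, 12.48 and 12.30 in mutants and 12, 11.58 and 11.09 in controls, a rise of 0.83 ± 0.21 (adjusted p = 0.0070), and 0.60 ± 0.17 without control 3 (adjusted p = 0.0121). Its 2 other probe sets had differences of 0.64 and 0.42.

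The cap-binding protein gene Eif4e itself differed by 0.36 ± 0.23 (adjusted p = 0.208), or 0.10 without control 3, and its 2 other probe sets by -0.23 and -0.64, none past the test. Eif4a1, the main helicase gene, differed by -0.15 ± 0.18 (adjusted p = 0.523), or 0.04 without control 3. Eif4a2, the helicase gene that is prominent in brain, stood at 12.18, 12.02 and 12.12 in mutants and at 12.95, 12.61 and 12.10 in controls at 13 weeks. Control 3 lay among the mutants, and the difference of -0.45 ± 0.19 did not pass (adjusted p = 0.0761). Without that array it was -0.67 ± 0.14 and passed (adjusted p = 0.00197). It also passed after median centring (-0.61). Eif4b, Eif4g3, Eif4h and Eif4e3 had differences from -0.44 to 0.06, and Eif4enif1, which carries eIF4E into the nucleus, one of 0.12, none of them past the test. Without control 3 those of Eif4b, Eif4g3 and Eif4enif1 changed sign, to -0.24, 0.22 and -0.37, and did not pass. In a fit of every probe set, another probe set of Eif4b fell by 0.84 at 13 weeks (adjusted p = 0.0294). The remaining one differed by 0.19 (adjusted p = 0.471).

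Eif6 had the smallest adjusted p among the risen factor genes at 13 weeks. It stood at 9.85, 9.65 and 9.43 in mutants and at 8.41, 8.56 and 8.45 in controls. The groups were far apart, with a rise of 1.17 ± 0.14 (2.25-fold, adjusted p = 5.49e-05). Eif5a, which helps ribosomes past stretches that stall them, stood at 13.51, 13.59 and 13.43 in mutants and at 13.40, 13.35 and 13.18 in controls, without overlap, but the difference of 0.20 ± 0.13 did not pass (adjusted p = 0.218). Eef1e1 carries an elongation factor's symbol but encodes AIMP3, a protein of the complex of tRNA synthetases. It stood at 10.49, 10.62 and 10.66 in mutants and at 9.81, 9.75 and 8.45 in controls, a rise of 1.25 ± 0.29 (adjusted p = 0.00409). Control 3 was low here too, and without it the rise was 0.81 ± 0.12 (adjusted p = 0.00027).

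Among the 5 tested genes of eEF1 and eEF2, 2 fell at 13 weeks and 0 rose, by the probe set that stands for each gene. Eef1a2, the neuronal form of the factor that delivers aminoacyl-tRNA, stood at 11.18, 11.32 and 11.63 in mutants and at 12.68, 12.72 and 12.85 in controls at 13 weeks. All mutants lay far below all controls, and the fall of 1.37 ± 0.15 (2.59-fold lower) had the smallest adjusted p of any factor gene, 1.84e-05. Its relative Eef1a1, the form of most cells, stood at 14.36, 14.33 and 14.35 in mutants and at 14.35, 14.44 and 14.43 in controls, a difference of -0.06 ± 0.12 (adjusted p = 0.708). Eef1a1 has many near-identical copies in the genome that its probes may also detect, and it was the brightest factor gene.

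Eef1b2 and Eef1d, the exchange factor subunits that recharge eEF1A, did not pass at 13 weeks, with differences of 0.32 ± 0.17 (adjusted p = 0.144) and 0.49 ± 0.29 (adjusted p = 0.178). Without control 3 these were 0.18 and 0.46, neither past the test. The other Eef1d probe set over the filter rose by 0.75 in a fit of every probe set (adjusted p = 0.0273). Eef2, the translocase, stood at 11.55, 11.64 and 11.66 in mutants and at 11.75, 12.06 and 12.44 in controls, and fell by 0.47 ± 0.18 (adjusted p = 0.0486). The groups did not overlap, but the call was lost without control 3 (-0.29 ± 0.14, adjusted p = 0.119) and with a term for sex (-0.54 ± 0.21, adjusted p = 0.0532). Eef1akmt1, a lysine methyltransferase of eEF1A, stood at 8.28, 8.36 and 8.73 in mutants and at 9.32, 9.67 and 8.14 in controls, with control 3 below the mutants, and its difference of -0.59 ± 0.31 did not pass (adjusted p = 0.142). Without control 3 it fell by 1.04 ± 0.17 (adjusted p = 0.000462). In a fit of every probe set, 2 of its 3 other probe sets fell, by 0.96 and 0.67 (adjusted p = 0.00108 and 0.00697), and the third differed by -0.53 (adjusted p = 0.103). Eef2k, the kinase that blocks eEF2, stayed between 2.32 and 2.56 on all 12 arrays, near the low end of the scale.

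**Figure D2:**
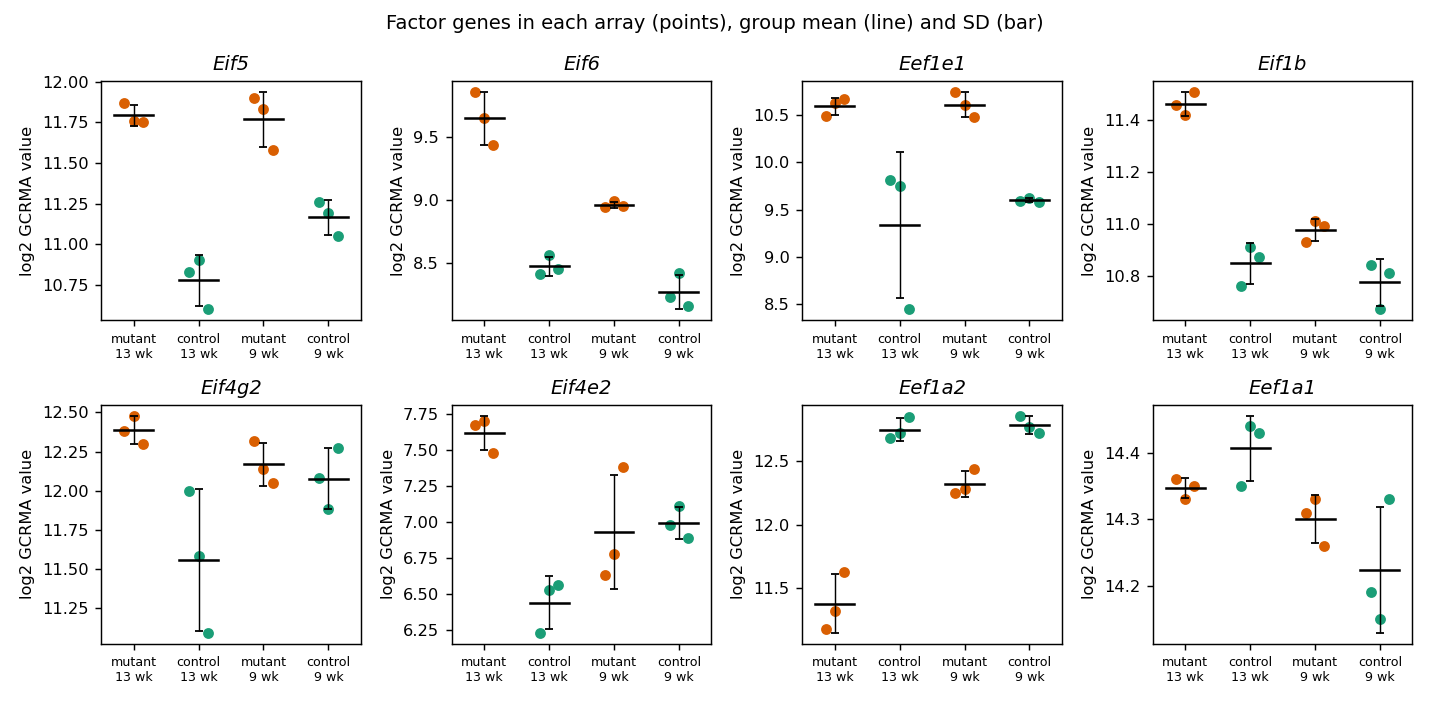
Log2 GCRMA values of 8 factor genes (vertical axes, each on its own scale) in mutants (orange) and controls (green) at 13 and 9 weeks; points are arrays, lines are group means and bars the SD (n = 3). Eif5 and Eif6 lie higher in mutants at both ages, Eef1a2 lies lower at both and lowest in mutants at 13 weeks, and Eef1a1 stays between 14.15 and 14.44 throughout.

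Marker genes of cell types differed strongly at 13 weeks beside these changes, when 23.4% of all genes rose and 22% fell. Of 11 medium spiny neuron markers 10 fell (median difference -2.36), and their mean level was 8.43 to 9.38 in mutants and 10.95 to 11.49 in controls. All 8 pan-neuronal markers fell (median -1.14), with mean levels of 9.82 to 10.31 in mutants and 10.95 to 11.54 in controls. Of 8 astrocyte markers 7 rose (median 1.56), with mean levels of 11.33 to 11.50 in mutants and 9.33 to 9.42 in controls, and all 9 microglia markers rose (median 2.60), with 11.13 to 11.50 in mutants and 8.37 to 8.76 in controls. All 4 endothelial and mural markers rose (median 1.46, mean levels of 6.55 to 7.22 in mutants and 4.92 to 5.66 in controls), and 0 of 5 oligodendrocyte markers passed (median 0.07, 12.37 to 12.62 in mutants and 12.08 to 12.41 in controls). The part of these shifts in the factor gene differences was not tested, and in whole striatum fewer cells of a type and less RNA per cell cannot be told apart.

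The promoters of the factor genes, taken from RefSeq (GRCm38.p6) as 250 bases before to 50 after each annotated start, were searched on both strands for 8 motifs: TGATGNAA (C/EBP-ATF element), CACGTG (E-box), CCGGAAG (core of ETS factor sites), TATAAA, the cyclic AMP response element core TGACGT, the full element TGACGTCA that contains this core, ATTGG (the CAAT box read in reverse) and GGGCGG (GC box). A promoter was at hand for 37 of the 46 factor genes, including 10 of the 12 that rose at 13 weeks. CCGGAAG was present in 12 of the 37 (32.4%), against 21.1% of the tested genes with a promoter and 9.93% of all 27025 genes, and in 5 of the 10 that rose (Eif1ax, Eif1b, Eif2b2, Eif3d and Eif4e2). CACGTG was present in 11 (29.7%, against 12.4% of tested genes and 8.09% of all), of which Eif1b and Eif3a rose and Eef2 fell. GGGCGG was present in 28 (75.7%, against 70.9% and 38.2%) and in 9 of the 10 that rose. TGACGT was present in 7 (18.9%, against 13.8% and 8.37%), TGACGTCA in 1 (2.7%, against 3.64% and 2.03%), ATTGG in 13 (35.1%, against 43.2% and 41.1%), TATAAA in 4 (10.8%, against 8.85% and 15.7%) and TGATGNAA in 2 (5.41%, against 2.85% and 4.51%).

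Stretches of 70 bases are shown for 4 risen genes with the ETS core and, for the GC box, for Eif5, a risen gene, and Eef1a2, the gene with the strongest fall. Each is given 5′ to 3′ on the strand of its gene, with the motif, or its reverse complement, in capitals. A match is a description of these letters and shows no binding.
Eif1ax, chrX:159371934-159372003, plus strand: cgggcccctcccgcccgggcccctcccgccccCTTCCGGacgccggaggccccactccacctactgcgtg
Eif1b, chr9:120492424-120492493, plus strand: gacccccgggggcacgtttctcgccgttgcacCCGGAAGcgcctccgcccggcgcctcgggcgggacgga
Eif3d, chr15:77970857-77970926, minus strand: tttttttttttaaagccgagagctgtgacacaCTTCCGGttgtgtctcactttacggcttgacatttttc
Eif4e2, chr1:87213861-87213930, plus strand: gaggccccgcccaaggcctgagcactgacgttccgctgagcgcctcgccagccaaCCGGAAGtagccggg
Eif5, chr12:111537856-111537925, plus strand: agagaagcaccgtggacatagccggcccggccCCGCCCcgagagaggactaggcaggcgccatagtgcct
Eef1a2, chr2:181157012-181157081, minus strand: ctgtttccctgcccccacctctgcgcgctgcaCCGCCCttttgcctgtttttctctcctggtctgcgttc

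At 9 weeks, 2 factor genes rose in mutants and 0 fell by limma, so that 4.65% of the factor genes passed, against 5% of all genes tested (2.02% higher and 2.98% lower). Both, Eif5 and Eif6, also rose at 13 weeks. At an unadjusted p under 0.05 there were 8 factor genes (18.6%, with 21.4% of all genes). All 3 mutants lay above all 3 controls for 10 factor genes (23.3%, with 15% of all genes) and below them for 4 (9.3%, with 20.6%), and the median difference was 0.09, against -0.02 over all genes.

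Eif5 stood at 11.90, 11.83 and 11.58 in mutants and at 11.26, 11.19 and 11.05 in controls at 9 weeks, without overlap, and rose by 0.60 ± 0.14 (1.52-fold, adjusted p = 0.038). Its 3 other probe sets over the filter had differences of 0.65, 1.14 and 1.23, the last 2 past the test in a fit of every probe set (adjusted p = 0.0366 and 0.0492). Eif6 stood at 8.94, 8.99 and 8.95 in mutants and at 8.23, 8.42 and 8.16 in controls, and rose by 0.69 ± 0.14 (1.61-fold, adjusted p = 0.0251). Neither call held throughout when arrays were left out. Eif6 did not pass when any 1 of the 6 arrays of this age was left out (adjusted p up to 0.102). Eif5 did not pass when a control of this age, mutant 1 or 2 of this age, or mutant 1 or 2 of 13 weeks was left out (adjusted p up to 0.143).

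Several other factor genes had separated groups at 9 weeks without passing. Eef1e1 stood at 10.74, 10.60 and 10.48 in mutants and at 9.59, 9.62 and 9.58 in controls, all mutants far above all controls, with a difference of 1.01 ± 0.29 (adjusted p = 0.0657). Eef1b2 stood at 12.56, 12.49 and 12.61 in mutants and at 12, 12.07 and 11.96 in controls, a difference of 0.54 ± 0.17 (adjusted p = 0.0887). Eef1a2 was already lower in every mutant, at 12.25, 12.28 and 12.44, against 12.86, 12.77 and 12.72 in controls, a difference of -0.46 ± 0.15 (adjusted p = 0.0952). Eif4a2 stood at 12.12, 11.97 and 11.94 in mutants and at 12.63, 12.62 and 12.48 in controls (-0.57 ± 0.19, adjusted p = 0.112). For Eif3d the values were 10.70, 10.82 and 10.49 in mutants and 10.15, 10.36 and 10.29 in controls (0.40 ± 0.14, adjusted p = 0.115).

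These calls changed with the arrays that set the shared estimate of spread. Control 3 of 13 weeks belongs to neither group compared at 9 weeks but enters that estimate, and in a fit without it the same differences passed for all 5 genes, with adjusted p of 0.000687 for Eef1e1, 0.0226 for Eef1b2, 0.0359 for Eef1a2, 0.012 for Eif4a2 and 0.0435 for Eif3d. That fit gave 5 factor genes higher and 2 lower, and 526 genes higher and 832 lower over all genes in place of 167 and 246. By the probe set that stands for each gene, the 11 eIF3 genes ranged from -0.11 to 0.40, the 4 eIF2B genes from -0.21 to 0.25, and Eif4g2, Eif4e2 and Eif1b, risen at 13 weeks, differed by 0.09, -0.06 and 0.20. In a fit of every probe set, another probe set of Eif3c rose at 9 weeks by 0.73 (adjusted p = 0.0406) and another of Eif4e3 fell by 0.73 (adjusted p = 0.0486), while those standing for the genes differed by 0.04 and -0.37. Of the markers, 1 of 11 medium spiny neuron markers fell (median -0.45, mean level 10.45 to 10.85 in mutants and 11.24 to 11.28 in controls) and 0 of 8 pan-neuronal (median -0.39), 0 of 8 astrocyte (0.28) and 0 of 9 microglia markers (0.33) passed.

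**Figure D3:**
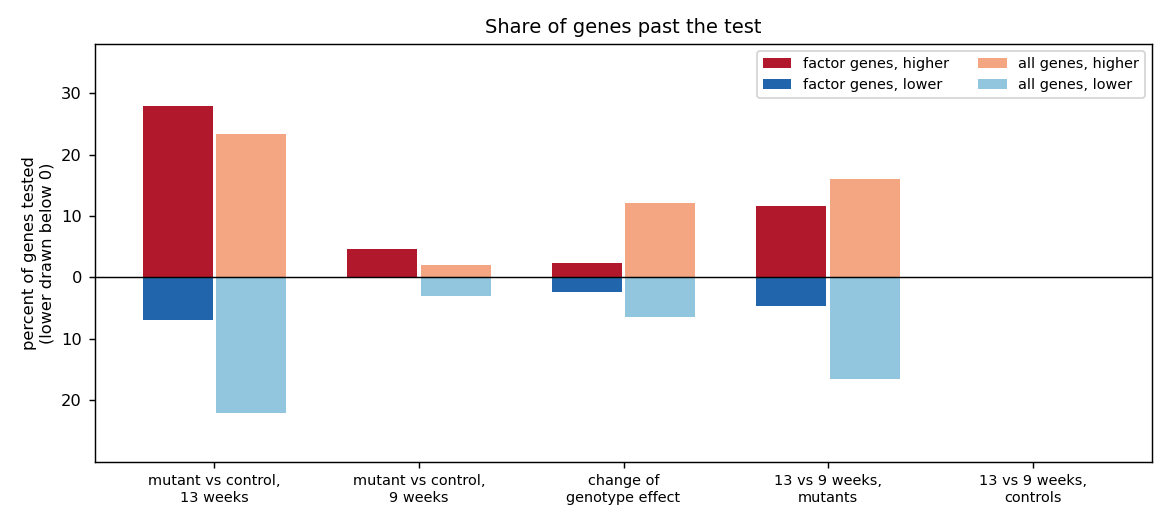
Percent of the 43 factor genes (dark) and of all 8257 genes tested (light) that passed in each comparison, higher drawn above 0 and lower drawn below 0. The factor genes that fell at 13 weeks are 6.98%, against 22% of all genes, and no factor gene passed between ages in controls.

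The change of the genotype effect between ages, tested as an interaction, passed for 2 factor genes, 4.65% of them, against 18.5% of all genes (12.1% with a higher effect at 13 weeks and 6.38% with a lower one). The effect on Eef1a2 was more negative at 13 than at 9 weeks, with a change of -0.91 ± 0.21 (adjusted p = 0.0102): the difference was -1.37 at 13 weeks and -0.46 at 9 weeks. The effect on Eif4e2 was higher by 1.24 ± 0.28 (adjusted p = 0.00872), with 1.18 at 13 weeks and -0.06 at 9 weeks, and with the mean of its probe sets the change was 0.32 and did not pass (adjusted p = 0.264). For Eif5 and Eif6 the larger difference at 13 weeks was not shown to differ from that at 9 weeks (changes of 0.41 ± 0.20, adjusted p = 0.189, and 0.48 ± 0.20, adjusted p = 0.129), nor was it for Eif1b (0.41 ± 0.17, adjusted p = 0.124) or Eif4g2 (0.74 ± 0.30, adjusted p = 0.11). Another probe set of Eif3c passed in a fit of every probe set (change of -0.83, adjusted p = 0.0335). The one standing for that gene had a change of 0.17 and did not pass.

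Between ages within the mutants, 5 factor genes were higher at 13 than at 9 weeks and 2 were lower, 16.3% of the factor genes against 32.7% of all genes (16.1% higher and 16.6% lower). All 3 arrays at 13 weeks lay above all 3 at 9 weeks for 6 factor genes (14%, with 22.8% of all genes) and below them for 7 (16.3%, with 31.8%). Eef1a2 fell by 0.95 ± 0.15 (adjusted p = 0.000454), with 11.18, 11.32 and 11.63 at 13 weeks and 12.25, 12.28 and 12.44 at 9 weeks. Eif6 rose by 0.68 ± 0.14 (adjusted p = 0.0035), with 9.85, 9.65 and 9.43 at 13 weeks and 8.94, 8.99 and 8.95 at 9 weeks. The ages did not overlap for either gene.

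Eif1b rose with age in mutants by 0.49 ± 0.12 (adjusted p = 0.0096), with all 3 arrays at 13 weeks above those at 9 weeks, and Eif4e2 by 0.69 ± 0.19 (adjusted p = 0.0178). Eef1d rose by 0.89 ± 0.29 (adjusted p = 0.031), with 10.30, 10.09 and 9.92 at 13 weeks and 8.94, 8.77 and 9.92 at 9 weeks, so that mutant 3 of 9 weeks reached the lowest value of 13 weeks. Of the 5 rises, 4 were lost after median centring: Eif1b (0.34, adjusted p = 0.0624), Eif4e2 (0.54, adjusted p = 0.0556), Eef1d (0.74, adjusted p = 0.0588) and Eif2s3x (0.81, adjusted p = 0.0544), so that Eif6 remained. Eif4e2 did not pass with the mean of its probe sets either (0.27, adjusted p = 0.14). In controls Eef1d had a difference of like size, 0.83 ± 0.29, that did not pass (adjusted p = 0.198). Eif3b, an eIF3 core subunit, fell by 0.49 ± 0.15 in mutants (adjusted p = 0.0219), and in controls the difference was -0.51 ± 0.15 (adjusted p = 0.144). The call in mutants was lost with a term for sex, and without mutant 2 of either age. Eif2s3x rose by 0.96 ± 0.31 (adjusted p = 0.0343), between a group of 3 females at 13 weeks and one of 1 female and 2 males at 9 weeks.

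Between ages within the controls, limma called 0 factor genes, and 0.145% of all genes (0.0848% higher and 0.0606% lower). All 3 arrays at 13 weeks lay above all 3 at 9 weeks for 4 factor genes (9.3%, with 6.67% of all genes) and below them for 7 (16.3%, with 16.7%). At an unadjusted p under 0.05 there were 8 factor genes (18.6%, with 17.3% of all genes), and no alternative setting called any. The largest differences of tested factor genes were Eef1d at 0.83, Eif4e2 at -0.55, Eif2s2 at -0.55, Eef1akmt1 at -0.54, Eif4g2 at -0.52, Eif3h at 0.51 and Eif3b at -0.51. Without control 3 of 13 weeks these were 0.86, -0.61, -0.24, -0.09, -0.29, 0.37 and -0.46 for the same genes in that order, none past the test. The median over the factor genes was -0.06, against -0.08 over all genes.

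Paralog pairs were set against each other within each array, where only the shift of the difference between groups can be read, since levels of different probe sets are not comparable. Eef1a1 minus Eef1a2 was 3.18, 3.01 and 2.72 in mutants and 1.67, 1.72 and 1.58 in controls at 13 weeks, a shift of 1.31. At 9 weeks it was 2.06, 2.05 and 1.82 in mutants and 1.33, 1.38 and 1.61 in controls, a shift of 0.54. Mutants lay above controls on every array at both ages.

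Eif4a1 minus Eif4a2 was shifted by 0.30 at 13 weeks and by 0.38 at 9 weeks. The groups overlapped at 13 weeks, where control 3 stood at 0.10 and the other controls at -1.26 and -1.04, and they were apart at 9 weeks, with -0.18, -0.12 and -0.42 in mutants and -0.57, -0.76 and -0.54 in controls. Eif4e minus Eif4e3, the cap-binding protein against a relative with a weaker grip on the cap, was shifted by 0.80 at 13 weeks without overlap and by 0.55 at 9 weeks with overlap. This shift holds for the Eif4e probe set used, since the 2 others had differences of the opposite sign at 13 weeks. For this pair control 3 of 13 weeks stood at 3.13, and the other controls of that age at 3.93 and 3.72. The shifts of Eif4e minus Eif4e2 (-0.81 at 13 weeks and 0.24 at 9 weeks) and of Eif1a minus Eif1ax (-0.17 and -0.21) came with overlap at both ages.

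**Figure D4:**
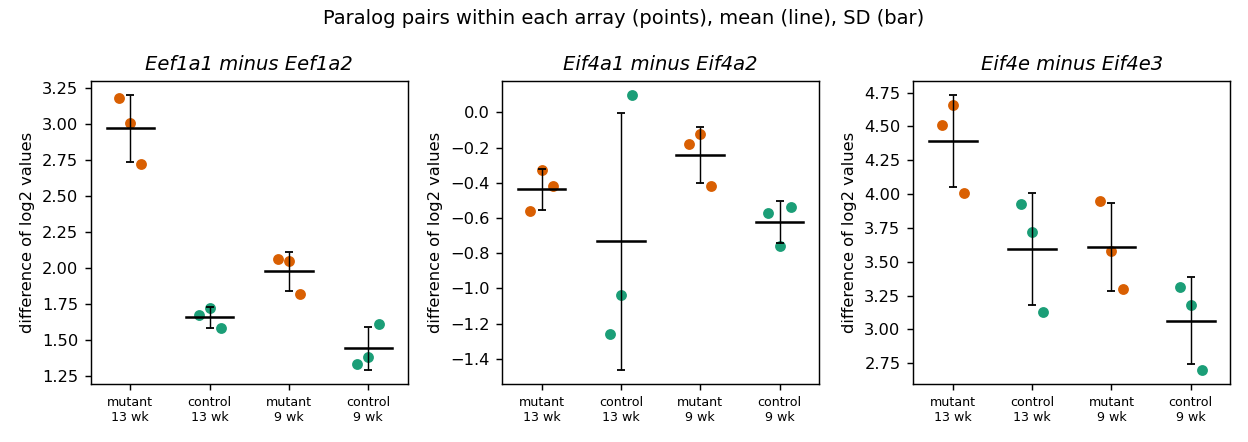
Difference of log2 values between the 2 genes of a pair in each array (points), for mutants (orange) and controls (green) at 13 and 9 weeks, with group means (lines) and SD (bars, n = 3). Eef1a1 minus Eef1a2 is 2.72 to 3.18 in mutants at 13 weeks and 1.58 to 1.72 in controls of that age, and control 3 at 13 weeks stands alone at 0.10 for Eif4a1 minus Eif4a2.

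The gamma subunit of eIF2 is encoded by Eif2s3x on the X chromosome, which is known to escape X inactivation, and by Eif2s3y on the Y chromosome. Eif2s3y stood between 2.72 and 2.96 in the 6 females, below the filter, and between 6.46 and 8.12 in the 6 males. This was the same split as that of Xist, from which sex was read. Eif2s3x stood at 10.68, 10.64 and 10.53 in the mutants at 13 weeks, all female, and at 9.73 in the female and 9.61 and 9.38 in the male controls of that age. At 9 weeks it stood at 10.40 in the female and 9.45 and 9.11 in the male mutants, and at 10.14 in the female and 9.23 and 9.27 in the male controls. Within each group with both sexes the female was the highest.

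With a term for sex in the fit, Eif2s3x differed between genotypes at 13 weeks by 0.54 ± 0.22 and did not pass (adjusted p = 0.0664), against 1.04 without it. Its difference between females and males was 0.75 ± 0.17 (adjusted p = 0.51). No male mutant of 13 weeks was present, so sex and genotype are separated at that age only through the other groups. With the term, Eif5 (1.07 ± 0.17, adjusted p = 0.000509), Eif6 (1.22 ± 0.17, adjusted p = 0.000224), Eef1a2 (-1.36 ± 0.18, adjusted p = 0.000136) and Eif4e2 (1.27 ± 0.23, adjusted p = 0.00103) kept their differences at 13 weeks.

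**Figure D5:**
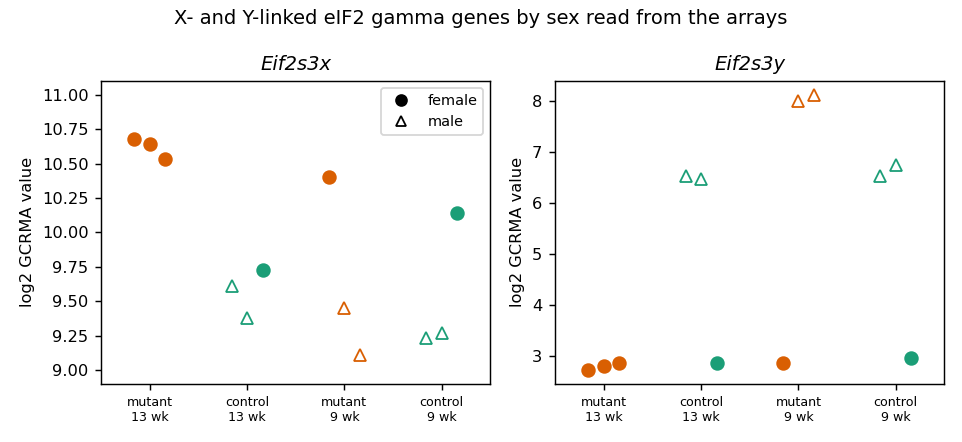
Log2 GCRMA values of Eif2s3x (left) and Eif2s3y (right) in each array, for mutants (orange) and controls (green) at 13 and 9 weeks. Filled circles are females and open triangles males, as read from Xist. The 3 mutants at 13 weeks are all female and stand at 10.53 to 10.68 for Eif2s3x and at 2.72 to 2.86 for Eif2s3y.

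Genes that act on these factors were followed in lists of their own. Among all genes tested, 23.4% rose and 22% fell at 13 weeks, and 2.02% rose and 2.98% fell at 9 weeks. Phosphorylated eIF2 slows initiation and favours translation of the transcription factor ATF4, and of 15 tested genes of that ATF4 pathway, 8 rose, 1 fell and 6 did not pass at 13 weeks (median 0.77, against 0.00 over all genes). Nupr1, a stress-induced regulator, rose by 5.10 ± 0.27. Atf3, another such gene, averaged 7.37 in mutants at 13 weeks and lay below the filter in the other groups, so the size of its rise is not measured. Atf4 itself rose by 1.66 ± 0.17 (adjusted p = 9.83e-06), Cebpg by 1.22 ± 0.23 and Ddit3, which encodes CHOP, by 0.97 ± 0.19. The other rises of this list were Slc3a2 by 1.08 ± 0.22, Cebpb by 0.98 ± 0.28 and Psat1 by 0.77 ± 0.14. Asns, asparagine synthetase and a known target of ATF4, fell by 0.73 ± 0.13 (adjusted p = 0.000877). At 9 weeks Ddit3 (1.25 ± 0.19, adjusted p = 0.0064) and Atf4 (0.75 ± 0.17, adjusted p = 0.0286) rose, 0 fell and 13 did not pass.

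Of the 8 genes for eIF2 kinases and phosphatase subunits, 2 rose, 1 fell and 5 did not pass at 13 weeks. At that age 45.4% of all genes tested passed. At 9 weeks 0 of the 8 passed, with 5% of all genes. Eif2ak2, which encodes the interferon-induced kinase PKR, rose (adjusted p = 1.21e-05), with a mean of 5.97 in mutants. Its means in the other groups, 3.02 to 3.35, lay below the filter, so the size of the rise is not measured. Dnajc3, an inhibitor of eIF2 kinases, rose by 1.09 ± 0.26 (adjusted p = 0.00514), and Eif2ak1, the haem-regulated kinase gene, fell by 0.51 ± 0.17 (adjusted p = 0.0288).

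Among 17 genes of the eIF4E-binding proteins and the mTORC1 kinase that controls them, 1 rose, 7 fell and 9 did not pass at 13 weeks (median -0.27). Of all genes, 23.4% rose and 22% fell at that age. Eif4ebp1, a translational brake on eIF4E, rose by 1.07 ± 0.16 (adjusted p = 0.000188). Deptor, an inhibitor bound to mTOR (-2.50 ± 0.39, adjusted p = 0.000312), Rragd, a GTPase that signals amino acids to mTORC1 (-1.83 ± 0.35, adjusted p = 0.00113), Tsc1 (-0.98 ± 0.19, adjusted p = 0.00122), a subunit of the complex that restrains mTORC1, and Mknk2, a kinase of eIF4E (-0.79 ± 0.16, adjusted p = 0.00153), fell, as did Mlst8, Tsc2 and Mtor. At 9 weeks Mknk2 fell (-0.87 ± 0.16, adjusted p = 0.0152), 0 rose and 16 did not pass.

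Of 11 genes for termination, recycling and rescue, 2 rose and 3 fell at 13 weeks, with 23.4% and 22% of all genes. Abce1, which splits ribosomes after termination, rose by 0.93 ± 0.23 (adjusted p = 0.00686) and Hbs1l, a rescue factor, by 0.53 ± 0.16 (adjusted p = 0.0156). Gspt2, a form of the release factor eRF3, fell at 13 weeks (-1.06 ± 0.14, adjusted p = 8.95e-05) and at 9 weeks (-0.88 ± 0.14, adjusted p = 0.00783), as did Gtpbp2, a partner in the rescue of stalled ribosomes (-0.78 ± 0.16, adjusted p = 0.00157, and -0.65 ± 0.16, adjusted p = 0.0371), while Gtpbp1 fell at 13 weeks (-1.02 ± 0.28, adjusted p = 0.0118). Of 7 genes for poly(A)-binding proteins and partners, Pabpc1 rose at 13 weeks (0.53 ± 0.13, adjusted p = 0.00509) and Pabpc4 at 9 weeks (1.02 ± 0.25, adjusted p = 0.0424). Neither the 2 enzymes that make the hypusine of eIF5A nor the 5 tested mitochondrial translation factors passed at either age.

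The probe sets of a gene mostly moved the same way. Of the 43 genes, 23 had 45 other probe sets over the filter, and for the genes that passed at 13 weeks 18 of 19 other probe sets had the same sign and 8 of 19 passed the same way. Eif3a had other differences of 0.74, 0.34 and 0.57, Eif2s2 of 0.26, 0.32, 0.38 and 0.47, and Eif2s3x of 0.60 and 0.92. The exception in sign was a probe set of Eif4e2. Eef1a2, Eif6, Eif1b, Eif3d, Eef1e1, Eef2 and Eif2b5 each rest on a single probe set over the filter.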

How the data were processed

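Striatal RNA of 12 mice was measured on Affymetrix arrays. The authors deposited log2 values made with GCRMA (version not given), per the submitters' processing notes, and these were used unchanged. Of 22690 probe sets, 20393 carried 1 gene symbol, 691 several and 1555 none, and only the first were used. The 1555 leave out array controls without annotation, and 64 probe sets are array controls in all. All 46 factor genes matched RefSeq by gene ID, with 0 changed symbols. Genes above their array's 40th percentile (3.51 to 3.81) in at least 3 arrays were fitted with limma 3.58.1 in R 4.3.3 (lmFit and eBayes, 4 group coefficients, 8 residual degrees of freedom). P-values were two-sided, Benjamini-Hochberg adjusted over 8257 genes, and called under 0.05. They set each difference against the spread between mice within groups, which eBayes estimates from all 4 groups and with help from the other genes. Genes past the test, paralog pairs and up to 4 members each way of every list, by smallest p, were to be named; genes near the threshold were added after their values were seen, and others fill out a role. Members and lists were chosen with earlier results of these data known. The procedure was tested on simulated data with 200 changed genes, independent noise, and no sex imbalance or outlying array. That setting is simpler than these data, and its results are not given here. Leaving out both control 3 of 13 weeks and mutant 3 of 9 weeks was added after seeing the data.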

Additional observations from a re-analysis of the deposited data

Results flagged for a closer look

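With 1 probe set per gene, the effect of the mutation differed between ages for 2 factor genes in limma's interaction test over 8257 genes. Eef1a2, the neuronal form of eEF1A, had a change of -0.91 ± 0.21 (adjusted p = 0.0102), with a mutant minus control difference of -1.37 at 13 weeks and -0.46 at 9 weeks, and 3 of 3 mutants lay below all controls at each age. Eif4e2, the cap-binding protein 4EHP, had a change of 1.24 ± 0.28 (adjusted p = 0.00872), with 3 of 3 mutants above all controls at 13 weeks and overlap at 9 weeks. Its other probe sets did not share the rise at 13 weeks. At 13 weeks 10 of 11 medium spiny neuron markers fell too (median -2.36), and their part in either change was not tested. No formal test for outlying arrays was made gene by gene, since groups of 3 are too small.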

How the results depend on the processing

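With 3 arrays per group and arrays left out in turn, the counts of factor genes higher ran from 9 to 13 at 13 weeks, 0 to 5 at 9 weeks, 1 to 2 for the change between ages and 2 to 6 for age in mutants, and those lower from 1 to 4, 0 to 2, 1 to 1 and 1 to 5. Age in controls gave 0 to 0 both ways. The counts of this section are not set against all genes, so they do not compare the factor genes with other genes. At 9 weeks, 0 were higher without any 1 control of 9 weeks or without mutant 1 or 2 of 9 weeks, 1 without mutant 3 of 9 weeks or mutant 1 or 2 of 13 weeks, and 5 without control 3 of 13 weeks. At 13 weeks, 1 was lower without any 1 control of 9 weeks or without mutant 1 or 2 of either age. For age in mutants, 2 were higher without mutant 2 of 9 weeks or mutant 1 or 2 of 13 weeks and 3 without mutant 1 of 9 weeks, and 1 was lower without mutant 2 of either age and 5 without control 3 of 13 weeks. The change between ages was higher for 2 genes without mutant 1 of 9 weeks or control 1 of 13 weeks.

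At an adjusted p under 0.01, counts were 7 higher and 1 lower at 13 weeks, 0 higher at 9 weeks, 0 lower for the change between ages, and 2 higher and 1 lower for age in mutants. Fitting only the groups compared gave 1 lower at 13 weeks and 4 higher and 3 lower at 9 weeks, and could not be run for the change between ages, which uses all groups. Median centring gave 6 lower at 13 weeks and 1 higher for age in mutants. Averaging the probe sets of a gene gave 1 lower at 9 weeks, 0 higher for the change between ages and 4 lower for age in mutants. Without a filter the change between ages was higher for 2 genes, and with a term for sex 1 was lower for age in mutants. Without both control 3 of 13 weeks and mutant 3 of 9 weeks, chosen after seeing the data, 6 were higher and 2 lower at 9 weeks, and 4 lower for age in mutants.

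The labels do not say whether replicate numbers pair the mice. Deviations of same-numbered arrays correlated at 0.09, 0.12 and 0.18 at 13 weeks and at 0.00, 0.07 and -0.07 at 9 weeks. Between ages the values were 0.07, 0.00 and 0.10 in mutants and 0.09, 0.10 and 0.10 in controls. With groups of 3 these correlations cannot decide whether mice were paired. With the replicate block 12 genes were higher and 3 lower at 13 weeks, 2 and 0 at 9 weeks, and of the genes followed only Eef1d, for age in mutants, lost its call (adjusted p = 0.0501). Of the 34 gene results followed through all settings, 0 reversed. Among factor genes outside these, Eif1a, Eif4a1, Eif4b, Eif4g3 and Eif4enif1 changed sign at 13 weeks without control 3. None of them passed with or without that array. Of 26 called gene results, 11 kept their call in every setting and with every array left out, apart from the 0.01 threshold. The causes of these changes were not tested.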
